A study of Oryza sativa with 6 samples.

Results

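Transposable elements are DNA segments that can change their position in the genome, and they make up a large part of the rice genome. Retrotransposons move through an RNA copy that is reverse transcribed, and comprise the long terminal repeat families Ty1-copia and Ty3-gypsy as well as LINEs and SINEs. DNA transposons such as En/Spm (CACTA), Mutator, Pong and Mariner are moved by a transposase. In plants most copies are kept silent by DNA methylation, by methylation of histone H3 at lysine 9 and by small RNAs, and stress can release some of them. Gene annotations of rice hold many models that are described as transposon proteins, and the data below are the leaf RNA levels of those models with and without glyphosate.

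The RNA came from leaves of CA21, a glyphosate-tolerant, non-transgenic rice line that was obtained by radiation and chemical mutagenesis followed by crossing and backcrossing. Seedlings at the third-leaf stage were sprayed with glyphosate, an inhibitor of aromatic amino acid synthesis, at 2 mg ml-1 (GLY1, GLY2 and GLY3), and unsprayed CA21 plants served as control (CK1, CK2 and CK3). All 6 libraries are of the same line, so the comparison is of sprayed with unsprayed plants of a tolerant line. The study's methods state 3 replications per group, and the labels only number the libraries. Neither says whether the replications were separate plants or pools, and the p-values measure the spread between these libraries. Levels are given in FPKM (fragments normalised by transcript length and by all mapped fragments of the library). The mapped depth, taken as coverage divided by FPKM, was 3.43 to 3.80 Gb in CK and 3.84 to 4.40 Gb in GLY. The study lists fewer valid reads for each GLY library than for any CK library. The leaf identity held, with summed levels of the 17 chlorophyll A-B binding protein genes between 24426 and 45749 FPKM in every library, and seed storage protein genes at no more than 1.50 FPKM in sum. Both leaf marker groups were lower in GLY, the chlorophyll A-B binding genes at 40479, 45749 and 42073 FPKM in CK against 35104, 35198 and 24426 FPKM in GLY, and their part in the results below was not tested.

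Entries of the deposited gene table were chosen when their description contained the words transposon protein, in any case of letters, which includes retrotransposon protein. There were 1045 such gene models among 35018 entries, 26846 of which hold an annotated transcript. According to the descriptions, 428 were retrotransposon models (13 Ty1-copia, 89 Ty3-gypsy, 3 LINE, 6 SINE and 317 unclassified) and 617 were DNA transposon models (497 En/Spm, 5 Mutator, 20 Pong, 1 Mariner and 94 unclassified). A further 59 entries hold a transcript with such a description in the transcript table but lack it in the gene table. They are not among the 1045 models and are counted with the other entries. Of these 59 entries, 53 were tested as described below, 8 rose and 3 fell. Among all entries tested, 19.3% were higher and 5.65% lower at the same threshold. The share of the 1045 models differed between chromosomes, from 1.69% of the annotated entries of chromosome 3 to 6.60% of those of chromosome 12. The models were long, with a median transcript length of 2389 bases and a median of 7 exons, against 1642 bases and 4 exons in the other annotated entries. Only 4.31% were single-exon models, against 17.3% of the other annotated entries.

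The functional terms in the file rarely named transposition. GO terms were attached to 447 of the 1045 models, and 1 of these models carried a term for transposition, integration or reverse transcription. Among the most frequent terms were integral to membrane on 336 models, ATP binding on 322 and protein serine/threonine kinase activity on 310, and 268 of the models with the kinase term were described as En/Spm. The description and the GO terms of a model therefore often differ on what it encodes. SINEs, for example, are short elements that encode no protein, whereas the SINE-described LOC_Os05g04630 has 12 exons and the GO term aspartic-type endopeptidase activity.

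Most transposon gene models were nearly silent in these leaves. The median of their mean levels was 0.0107 FPKM, against 1.32 FPKM in the other annotated entries, and 812 of the 1045 models had a mean under 0.1 FPKM. A mean of at least 1 FPKM was found for 99 models, and of at least 10 FPKM for 11. The silent share depended on the class. A mean of at least 0.5 FPKM, the filter for testing, was reached by 25 of 497 En/Spm models and 2 of 89 Ty3-gypsy models, but by 49 of 94 unclassified transposon models and 5 of 6 SINE models. In all, 129 models (12.3%) passed the filter, against 55.2% of all entries, and 916 did not.

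**Figure D1:**
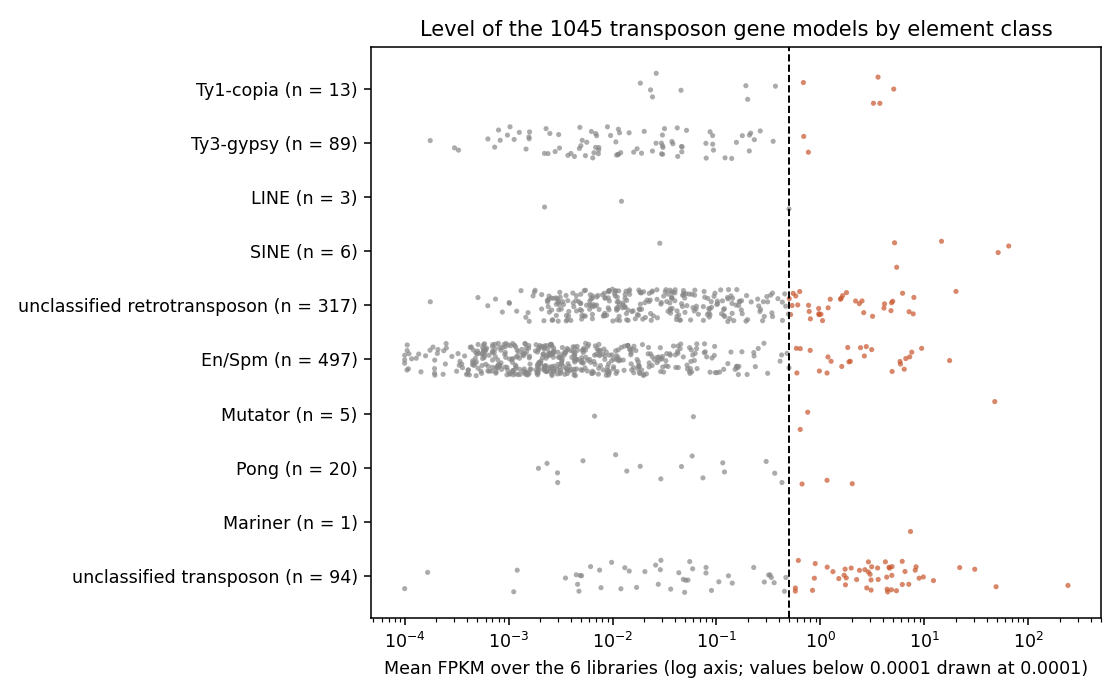
Mean FPKM over the 6 libraries (log axis) of each of the 1045 transposon gene models, by element class. Each point is 1 model, and orange points to the right of the dashed line at 0.5 FPKM are the 129 models that were tested. The En/Spm and Ty3-gypsy models lie mostly under 0.1 FPKM.

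More transposon gene models were detected in the sprayed plants than in the unsprayed plants. With any value above 0 counted as detected, 516, 595 and 547 models were detected in CK1, CK2 and CK3, and 744, 721 and 724 in GLY1, GLY2 and GLY3. The means were 553 ± 39.8 and 730 ± 12.5 (SD, n = 3), a ratio of 1.32, and the groups did not overlap. The exact permutation test gave p = 0.1, which is the smallest p that 3 libraries against 3 can give. In leaf RNA, a change in the share of a cell type and a change in RNA per cell cannot be told apart. The number of all other entries detected differed by a ratio of 1.02, from 25495 ± 95.4 to 26105 ± 122 of 33973. These groups did not overlap either (exact permutation p = 0.1). Most of the other entries were already detected in CK, which limits how far their ratio can rise. Models above 0 only in GLY libraries numbered 227, and models above 0 only in CK libraries numbered 94. Of all models, 203 were above 0 in 1 library only. Models above 0 in all GLY and no CK library numbered 26, and 8 were above 0 in all CK and no GLY library. No such counts over all entries are given here.

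The difference was largest in number for En/Spm models, of which 189, 252 and 237 were detected in CK and 366, 330 and 346 in GLY, a ratio of 1.54. Unclassified retrotransposon models numbered 166, 176 and 167 in CK and 203, 216 and 206 in GLY, and Ty3-gypsy models 54, 61 and 40 against 66, 66 and 63, without overlap in either class (exact permutation p = 0.1 in each of these 3 classes). Unclassified transposon models were detected at 73, 71 and 70 in CK and 75, 74 and 72 in GLY, and Pong models at 12, 15 and 10 against 10, 11 and 12, and both classes overlapped between the groups. By mapped depth the GLY libraries were deeper, whereas the study lists fewer valid reads for them. CK2 and GLY3, the CK and GLY libraries closest in mapped depth at 3.80 and 3.84 Gb, had 252 and 346 En/Spm models and 595 and 721 models of all classes. Whether depth had a part in the detected numbers was not tested, and this pair cannot decide it.

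Very little sequence stood behind these detections. The sequenced bases assigned to a model (its coverage times its length) had a median of 161 bases over the 3097 values above 0 of the models under the filter, and of 65.3 bases over the 1571 such values of En/Spm models. In the other annotated entries under the filter the median was 754 bases. Fewer than 50 bases, which is less than a whole read, were assigned in 44.1% of the En/Spm values and 1.60% of the values of the other entries. With at least 200 assigned bases required, 74, 75 and 82 En/Spm models were detected in CK and 133, 131 and 119 in GLY, a ratio of 1.66 (77.0 ± 4.36 and 128 ± 7.57, SD, n = 3). Ty3-gypsy models were then detected at 27, 23 and 19 in CK and 35, 38 and 39 in GLY, and unclassified retrotransposon models at 117, 123 and 126 against 151, 155 and 155. The same requirement gave a ratio of 1.03 for all other entries, also without overlap. The groups of all 3 classes stayed apart, although nearly identical copies share reads and the count cannot tell which copy was transcribed.

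**Figure D2:**
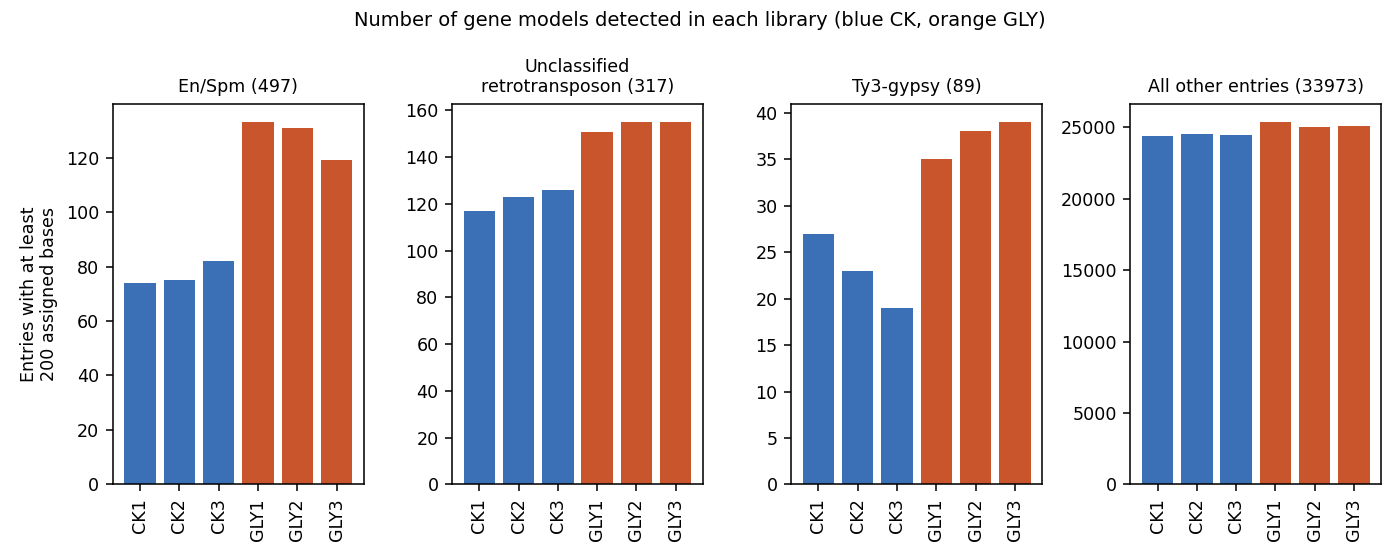
Number of entries with at least 200 assigned bases in each library, for 3 element classes and for all entries that are no transposon models (total entries of each group in brackets). CK libraries are blue and GLY libraries orange. En/Spm models number 74 to 82 in CK and 119 to 133 in GLY. The other entries differ by a ratio of 1.03, also without overlap.

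Among the 916 models under the filter, the mean was higher in GLY for 677 and lower for 239. For 145 of them (15.8%) all GLY values lay above all CK values, and for 17 (1.86%) below. In all 15702 entries under the filter the shares were 10.3% and 3.48%. En/Spm models, 472 of the 916, contributed 83 of the 145 and 2 of the 17. Ty3-gypsy models, 87 of the 916, contributed 14 and 0, and unclassified retrotransposon models, 281 of the 916, contributed 37 and 11. At stricter minimums the excess in GLY became smaller in number. At least 0.1 FPKM was reached by 207 ± 3.51 models in CK and 249 ± 4.73 in GLY, and at least 1 FPKM by 89.3 ± 3.06 and 108 ± 1.53 (SD, n = 3), again without overlap. The ratios were 1.20 and 1.21, and those of all other entries at the same minimums 1.03 and 1.09, also without overlap.

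The summed level of all 1045 models was 871, 922 and 806 FPKM in CK and 1137, 1117 and 981 FPKM in GLY, a ratio of 1.24. They made up 0.155%, 0.159% and 0.137% of the summed FPKM of a CK library and 0.205%, 0.211% and 0.189% of a GLY library. The highest entry, LOC_Os04g55710, contributed 24.8% of the sum, and without it the ratio was 1.14. When the libraries were rescaled by median-of-ratios factors, which set the typical entry equal between libraries, the ratio of the whole sum was 1.01.

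By class, the summed level of En/Spm models was 87.5, 87.1 and 82.7 FPKM in CK and 130, 132 and 119 FPKM in GLY, a ratio of 1.48, with no overlap and with 16.5% of the sum in its highest model. Unclassified retrotransposon models summed to 109, 85.6 and 103 FPKM in CK and 153, 146 and 130 FPKM in GLY (ratio 1.44), Ty1-copia models to 11.8, 14.5 and 13.7 against 23.9, 24.3 and 15.1 FPKM (ratio 1.59), and unclassified transposon models to 435, 512 and 350 against 634, 638 and 544 FPKM (ratio 1.40). LOC_Os04g55710 made up 46.4% of the unclassified transposon sum, and without it that ratio was 1.24. The Mutator sum had a ratio of 1.50, but 97.0% of it was LOC_Os12g12360. The SINE sum was lower in GLY, at 116, 96.5 and 91.8 FPKM against 175, 166 and 204 FPKM in CK, a ratio of 0.560. For these 6 classes the exact permutation p was 0.1, the smallest possible, and 0.133 after adjustment over the 8 classes with at least 5 entries. The Ty3-gypsy and Pong sums overlapped between the groups (ratios 1.53 and 1.57, exact permutation p = 0.2 for each). With median-of-ratios scaling the ratios were 1.20 for En/Spm, 1.22 for Mutator and 0.454 for SINE models, with no overlap, whereas those of Ty1-copia, unclassified retrotransposon and unclassified transposon models were 1.29, 1.17 and 1.14 with overlapping groups.

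**Figure D3:**
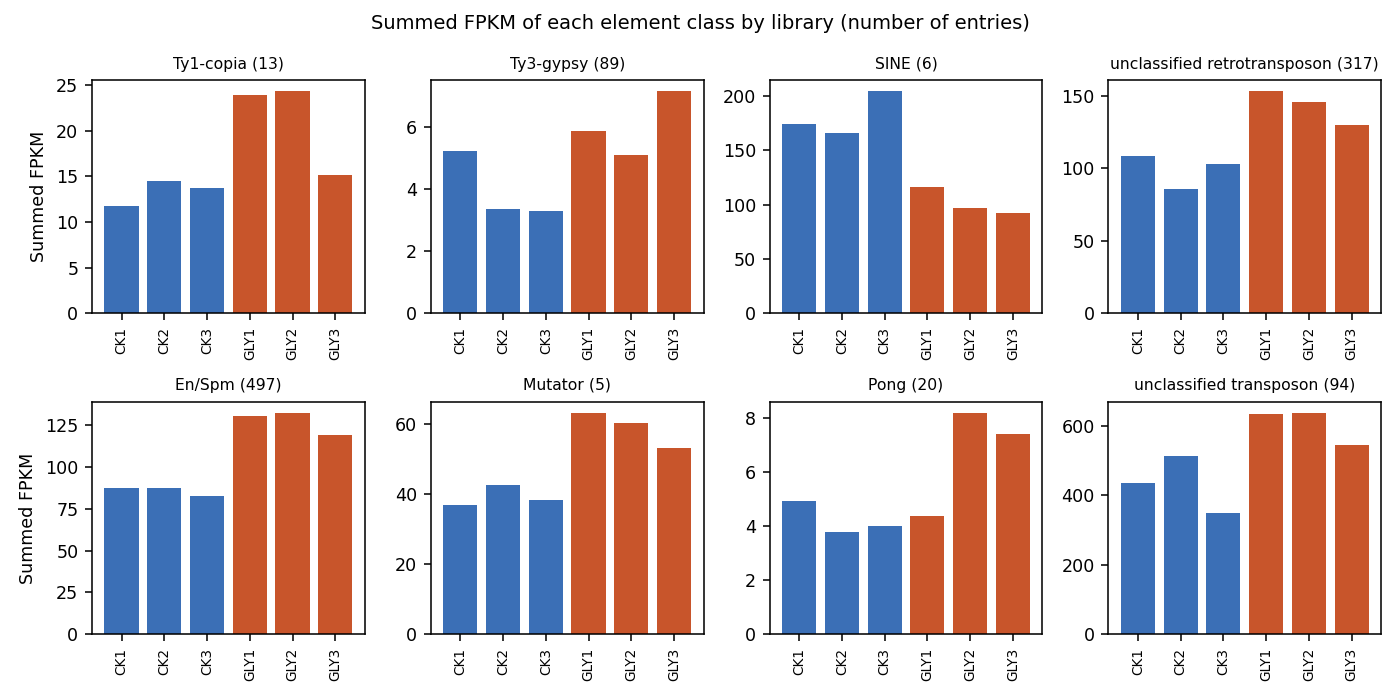
Summed FPKM of all models of an element class in each library, for the 8 classes with at least 5 entries (number of entries in brackets); CK libraries are blue and GLY libraries orange. The SINE sum lies between 166 and 204 FPKM in CK and between 91.8 and 116 FPKM in GLY, and the En/Spm sum at no more than 87.5 FPKM in CK and no less than 119 FPKM in GLY.

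The 129 models above the filter were tested one by one with limma on log2(FPKM + 1), with Benjamini-Hochberg adjustment over all 19316 entries tested, and are said to have risen or fallen at an adjusted p under 0.05. On this scale the change of low entries is understated. The filter is a mean over all 6 libraries, so a model near 0 in CK could pass it through GLY alone. Among the models that rose, this holds for LOC_Os03g15010 and LOC_Os03g41200, at 0 in CK, and LOC_Os07g28850, at a CK mean of 0.317 FPKM. It also holds for LOC_Os02g16280, LOC_Os08g22320, LOC_Os09g17930, LOC_Os01g04620 and LOC_Os11g05820, at CK means of 0.156, 0.206, 0.237, 0.257 and 0.424 FPKM. The counts below include such models, and for them the filter and the test rest on the same GLY values. Of the 129 models 41 rose and 5 fell, 35.7% in all, and 24.9% of all entries tested passed the same threshold (19.3% higher and 5.65% lower). The median difference was 0.34 on the log2 scale in the models and 0.20 in all entries tested, and 102 models had a difference above 0 and 27 below. Among En/Spm models 11 rose and 1 fell of 25 tested. Among unclassified retrotransposon models 12 rose and 1 fell of 36, among unclassified transposon models 13 rose and 1 fell of 49, among SINE models 1 rose and 2 fell of 5, among Mutator models 2 rose of 3, and 1 model rose among 5 Ty1-copia and among 3 Pong models. Neither of the 2 Ty3-gypsy models nor the single Mariner model passed. With no filter, 51 of all 1045 models passed (4.88%), against 11.4% of all entries.

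Larger changes were about as frequent as elsewhere on this scale. An absolute log2 difference of at least 1 with P under 0.05 was found for 8 models that were higher and 3 that were lower, 8.53%, against 8.98% of all entries tested (6.58% higher and 2.4% lower). With a pseudocount of 0.1, which gives low entries larger differences, the count was 26 models (23 higher), 20.2% against 16.7% of all entries. The groups did not overlap for 61 models that were higher and 8 that were lower, 53.5% against 44.9% of all entries (34.3% higher and 10.6% lower). The counts depended on the scaling of the libraries. Median-of-ratios scaling moved the median of all entries from 0.20 to -0.01 and that of the models from 0.34 to 0.12, and 27 models then passed, 19 of them higher and 8 lower (20.9% of the models against 20.1% of all entries). Higher entries made up 70.4% of the models that passed and 49.9% of all entries that passed under that scaling, compared with 89.1% and 77.3% without it. With the CK3 library left out 29 models passed, 25 of them higher, and with CK1 left out 31 passed, 27 of them higher.

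**Figure D4:**
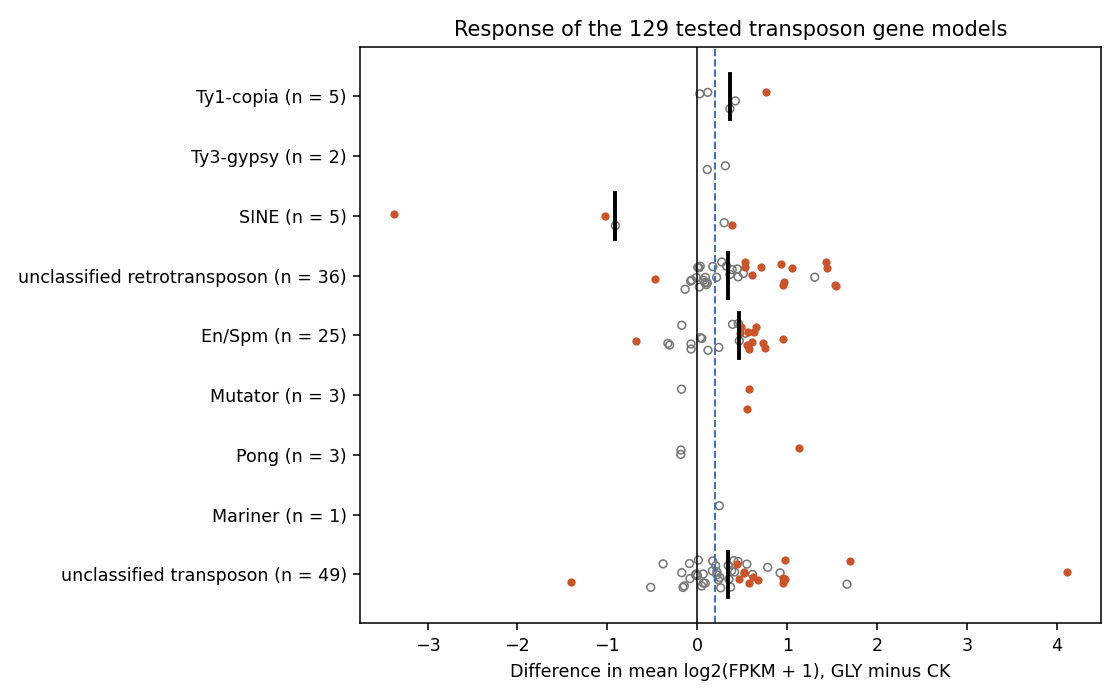
Difference in mean log2(FPKM + 1) between GLY and CK for each of the 129 tested models, by element class. Filled orange points passed an adjusted p of 0.05, open points did not, black bars are class medians (classes of 5 or more), and the dashed line is the median of all 19316 entries, 0.20. The SINE models LOC_Os08g16830 and LOC_Os08g16820 and LOC_Os02g02460 lie below -1, and LOC_Os03g15010 lies farthest to the right.

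The strongest decrease was seen in a group of SINE-described models on chromosome 8. LOC_Os08g16830 (10294174 to 10295184, minus strand, 2 exons) stood at 97.0, 89.0 and 97.4 FPKM in CK and at 7.34, 8.32 and 9.02 FPKM in GLY. It fell by 3.37 ± 0.10 (SE) on the log2 scale, with an adjusted p of 9.0e-05, and in CK it was the highest SINE model. Its neighbour LOC_Os08g16820, 1305 bases away on the same strand, fell from 7.12, 7.66 and 6.96 FPKM to 3.58, 3.54 and 2.16 FPKM (-1.03 ± 0.17, adjusted p = 0.010). The next SINE model, LOC_Os08g16810, lies 4112 bases farther and was uneven within both groups, at 7.34, 8.84 and 40.1 FPKM in CK and 24.6, 4.07 and 2.92 FPKM in GLY (adjusted p = 0.516). It was described here because of its position, after its values were seen. All 3 models have 2 exons and lengths of 676 to 862 bases. Whether their reads can be assigned to a single copy was not tested, but the different patterns show that their values are not copies of each other.

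The other SINE models behaved differently. LOC_Os05g04630 (chromosome 5, 2174872 to 2179118), the model with aspartic-type endopeptidase activity, rose from 58.3, 54.9 and 55.3 FPKM to 74.9, 74.9 and 71.0 FPKM (0.38 ± 0.07, adjusted p = 0.016). The groups did not overlap, but the model did not pass under median-of-ratios scaling (adjusted p = 0.441). The SINE class was thus carried by 1 model that fell strongly and 1 abundant model that rose slightly, and without the latter the class sum had a ratio of 0.223.

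Among the unclassified DNA transposon models, LOC_Os03g15010 (chromosome 3, 8191894 to 8195180, plus strand) was listed at 0 in all CK libraries and at 16.9, 16.4 and 15.7 FPKM in GLY, with an adjusted p of 2.0e-05. It is a single-exon model of 3287 bases with the GO terms nucleus and zinc ion binding. Why a library is listed at 0 was not tested. Zeros also occurred beside high values within a group, as in LOC_Os02g46420, a model named after its values were seen, at 13.1, 0 and 0 FPKM in CK and 19.6, 20.8 and 0 FPKM in GLY. The nearest annotated entry to LOC_Os03g15010, LOC_Os03g15020, lies 766 bases away and was also higher in GLY, by 1.38 on the log2 scale (adjusted p = 0.001).

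LOC_Os03g25150 rose from 0.988, 1.51 and 1.94 FPKM to 7.69, 6.60 and 6.59 FPKM (1.70 ± 0.17, adjusted p = 0.002). Its GO terms name flavonoid 3',5'-hydroxylase activity and heme binding, which belong to a cytochrome P450 type of enzyme and not to a transposase. LOC_Os02g02460, with the GO term transmembrane transport, fell from 7.92, 5.66 and 7.98 FPKM to 2.26, 1.91 and 2.04 FPKM (-1.40 ± 0.15, adjusted p = 0.003). Both separated the groups completely.

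The 2 most abundant unclassified transposon models did not pass the test. LOC_Os04g55710 had the highest level of all transposon models and carries the GO term asparaginase activity, which is the release of ammonium from asparagine. It stood at 178, 268 and 105 FPKM in CK and at 326, 322 and 246 FPKM in GLY (0.78 ± 0.34, adjusted p = 0.155), and GLY3 lay under CK2. LOC_Os02g47200, with the GO term alternative oxidase activity, a terminal oxidase of plant mitochondria, had 50.8, 53.3 and 50.4 FPKM in CK and 45.6, 43.7 and 50.3 FPKM in GLY (-0.14 ± 0.09, adjusted p = 0.266). Under median-of-ratios scaling it passed as lower in GLY (adjusted p = 0.020).

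**Figure D5:**
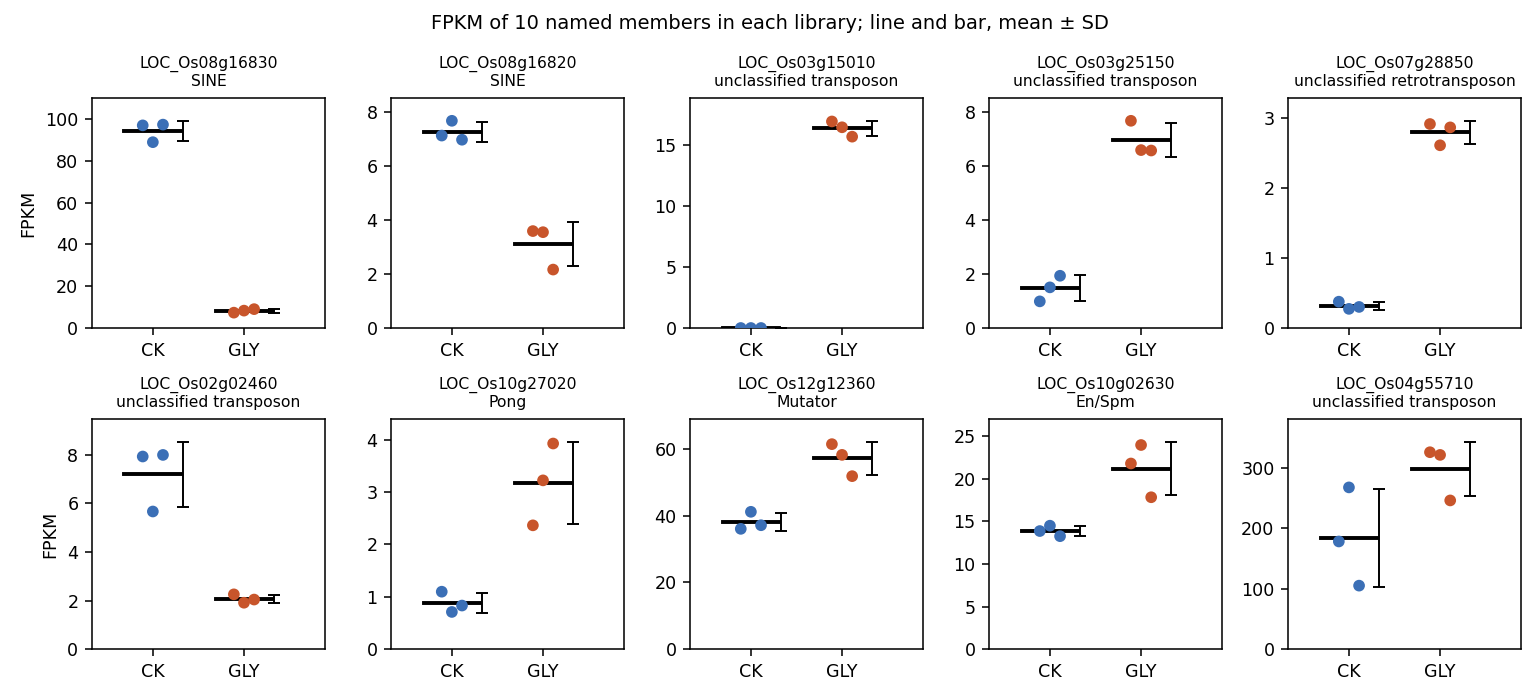
FPKM of 10 named transposon gene models in each library (points; CK blue, GLY orange), with the mean (line) and the SD (bar) of the 3 libraries; every axis starts at 0. LOC_Os08g16830 lies at 89.0 FPKM or more in CK and at 9.02 FPKM or less in GLY, LOC_Os03g15010 is listed at 0 in CK, and only LOC_Os04g55710 among the 10 shows overlapping groups.

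In the unclassified retrotransposon models, the largest differences concerned models of low level. LOC_Os07g28850 (chromosome 7, 16893630 to 16900205) rose from 0.376, 0.274 and 0.301 FPKM to 2.92, 2.61 and 2.87 FPKM (1.53 ± 0.10, adjusted p = 8.7e-04). It has 21 exons and carries the GO term gene silencing by RNA, the process by which small RNAs repress transcripts, which differs from its description. LOC_Os03g41200 was listed at 0 in all CK libraries and at 2.21, 1.37 and 2.25 FPKM in GLY (adjusted p = 0.003). In the opposite direction, LOC_Os11g47410 was at 0.556, 0.520 and 0.619 FPKM in CK and listed at 0 in all GLY libraries, and its mean was under the filter, so that it was not tested.

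LOC_Os11g11330 fell from 5.99, 5.66 and 5.47 FPKM to 4.04, 4.26 and 3.26 FPKM (-0.47 ± 0.11, adjusted p = 0.031), a result that was lost on leaving out any single library (adjusted p from 0.051 to 0.090). The 2 models of this class with the highest mean did not pass the test. LOC_Os03g01930, with kinase terms, had 24.1, 6.98 and 26.1 FPKM in CK and 24.5, 22.7 and 16.6 FPKM in GLY (adjusted p = 0.671), with CK2 far under the others. LOC_Os09g38080 had 7.67, 7.54 and 8.27 FPKM against 8.85, 9.30 and 6.01 FPKM (adjusted p = 0.953). The next in level, LOC_Os02g50570, named after its values were seen, rose from 4.95, 4.52 and 5.45 FPKM to 10.7, 10.7 and 10.5 FPKM (0.97 ± 0.09, adjusted p = 0.002). Only 4.40% of the coverage of LOC_Os03g01930 lay in the annotated transcript, the rest in transcripts assembled from the reads.

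The 2 most abundant En/Spm models both rose. LOC_Os10g02630, the highest, with terms for the ribonucleoprotein complex and splicing via the spliceosome, rose from 13.8, 14.5 and 13.2 FPKM to 21.8, 23.9 and 17.8 FPKM (0.57 ± 0.13, adjusted p = 0.025). LOC_Os03g50090, with terms for ATP-dependent helicase activity and RNA splicing, rose from 6.07, 7.01 and 7.54 FPKM to 11.7, 12.1 and 12.1 FPKM (0.72 ± 0.10, adjusted p = 0.006). LOC_Os10g02630 passed without GLY3 but not without any of the other libraries (adjusted p from 0.055 to 0.076) or under median-of-ratios scaling (0.156), and 13.9% of its coverage lay in the annotated transcript.

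The En/Spm models with the largest rise and the only one that fell carried kinase terms. LOC_Os07g23270, with the terms receptor activity and sugar binding, rose from 1.48, 0.748 and 0.613 FPKM to 2.48, 2.54 and 3.14 FPKM (0.96 ± 0.19, adjusted p = 0.019), but 2.83% of its coverage lay in the annotated transcript, and the adjusted p was 0.054 to 0.058 with CK2, CK3, GLY2 or GLY3 left out. LOC_Os10g12480 rose from 0.824, 0.463 and 0.490 FPKM to 2.47, 1.33 and 1.37 FPKM (0.76 ± 0.20, adjusted p = 0.044), and did not pass when any single library was left out (adjusted p from 0.066 to 0.121) or under median-of-ratios scaling (0.091). LOC_Os04g12390 fell from 2.75, 2.47 and 2.62 FPKM to 1.14, 1.31 and 1.34 FPKM (-0.68 ± 0.10, adjusted p = 0.007). Kinase terms were present on 8 of the 25 En/Spm models tested and on 268 of all 497.

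The Mutator class was dominated by LOC_Os12g12360 (10 exons), which rose from 36.1, 41.2 and 37.1 FPKM to 61.4, 58.2 and 51.8 FPKM (0.57 ± 0.10, adjusted p = 0.013). The low LOC_Os11g05820 rose from 0.327, 0.536 and 0.410 FPKM to 1.03, 1.18 and 1.05 FPKM (0.55 ± 0.12, adjusted p = 0.027). Both separated the groups, and neither passed under median-of-ratios scaling (adjusted p of 0.110 and 0.063). LOC_Os11g05820 also did not pass with CK1, CK3, GLY1 or GLY2 left out (0.059 to 0.069), and it reached the filter through GLY alone.

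Pong elements encode a transposase and can mobilise the miniature element mPing of rice. LOC_Os10g27020 (chromosome 10, 14240139 to 14241282, minus strand) rose from 1.10, 0.712 and 0.834 FPKM to 2.36, 3.22 and 3.92 FPKM (1.14 ± 0.17, adjusted p = 0.008). It overlaps an entry on the opposite strand, the unclassified retrotransposon model LOC_Os10g27030, which was considered because of this overlap after its values were seen. That entry rose by 1.45 on the log2 scale (adjusted p = 0.002), and 0.347% of its coverage lay in the annotated transcript. Since no strand-specific counting was stated, reads of the pair cannot be told apart. The other abundant Pong model, LOC_Os05g13960, had 1.53, 1.11 and 1.20 FPKM in CK and 0.534, 1.21 and 1.37 FPKM in GLY (adjusted p = 0.546).

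Ty1-copia models are few but comparatively well expressed. LOC_Os11g17504, with the GO term hydrolase activity, rose from 2.39, 2.50 and 2.29 FPKM to 3.99, 5.03 and 5.33 FPKM (0.76 ± 0.12, adjusted p = 0.009). LOC_Os01g60309, with the term cell adhesion molecule binding, had 3.73, 4.61 and 4.17 FPKM in CK and 5.78, 7.34 and 4.84 FPKM in GLY (adjusted p = 0.105). LOC_Os01g01312, with terms for helicase activity and transcription-coupled nucleotide-excision repair, had 2.58, 3.72 and 3.11 FPKM against 4.91, 4.67 and 3.40 FPKM (adjusted p = 0.167). The groups of the last model overlapped.

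Of the 89 Ty3-gypsy models the highest, LOC_Os06g38410, stood at 0.643, 0.532 and 0.553 FPKM in CK and 0.858, 1.05 and 0.967 FPKM in GLY (adjusted p = 0.109). LOC_Os05g18446 had 1.44, 0.448 and 0 FPKM against 0.830, 0 and 1.43 FPKM (adjusted p = 0.884). LINE models stayed under the filter. The highest, LOC_Os05g23140, with kinase terms, had 0.384, 0.522 and 0.543 FPKM in CK and 0.331, 0.971 and 0.238 FPKM in GLY, and LOC_Os02g22760 did not exceed 0.041 FPKM. The Mariner model LOC_Os02g34730 had 5.79, 7.27 and 5.83 FPKM in CK and 5.81, 5.57 and 13.3 FPKM in GLY (adjusted p = 0.618), with GLY3 above all others.

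The level of a gene entry also includes transcripts assembled from the reads that share its locus. For 90 of the 129 tested models all coverage lay in annotated transcripts, and for 24 less than 50% did. Of the 46 models that passed the test, 10 were among those 24 and 36 had most of their coverage in annotated transcripts. By transcript, 132 of the 1101 so described transcripts of the models reached a mean of 0.5 FPKM, of which 11 rose and 3 fell (10.6%), against 6.19% of all 32646 transcripts tested (4.4% higher and 1.79% lower). Each of these 14 transcripts belonged to a different model. An annotated transcript passed for 14 of the 46 models, and 7 had no annotated transcript above the filter.

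Adjacent entries were examined because, without a stated use of strand, reads of overlapping entries cannot be told apart. Of the 129 tested models, 31 overlapped another entry, 17 of them an annotated one. An annotated neighbour that is no transposon model and was itself tested lay within 5 kb of 70 models. The log2 differences of model and neighbour had the same sign in 50 of the 70 pairs (71.4%), in which 55 models and 57 neighbours had a difference above 0. Their Pearson r across these pairs, which are not independent replicates, was 0.14. Of the 24 models that passed the test and had such a neighbour, 6 had a neighbour that passed in the same direction, 18 had a neighbour that did not pass, and 0 had one that passed in the other direction. As background for these neighbours, 24.9% of all entries tested passed in either direction, 19.3% as higher and 5.65% as lower.

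Genes of the silencing pathways and of DNA demethylation, which removes a silencing mark, were taken from the descriptions as 1 list, excluding the transposon models. Of 40 such entries 23 were tested, 8 rose and 0 fell (34.8% higher, against 19.3% of all entries), with a median difference of 0.19, close to that of all entries. The HhH-GPD base excision group, listed for demethylation, held 5 of the 23 and 3 of the 8. Those that rose were in the small RNA and DNA glycosylase groups. Argonaute proteins bind small RNAs, and 3 of 8 tested genes of this type rose. The share of their coverage in annotated transcripts was 92.0% for LOC_Os01g16870, 100% for LOC_Os06g51310 and 3.11% for LOC_Os07g16224. LOC_Os01g16870, described as argonaute, rose from 5.94, 5.53 and 6.68 FPKM to 13.2, 13.3 and 10.3 FPKM (0.91 ± 0.13, adjusted p = 0.007). RNA-dependent RNA polymerases make the double-stranded precursors of small interfering RNAs, and 2 of 4 rose. LOC_Os01g10140 rose from 0.0747, 0.185 and 0.160 FPKM to 1.02, 1.20 and 0.766 FPKM (0.80 ± 0.15, adjusted p = 0.014). Its CK mean was 0.140 FPKM, so it reached the filter through GLY alone, and filter and test rest on the same GLY values.

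Genes described as HhH-GPD base excision proteins, a superfamily that contains the plant DNA demethylases, rose in 3 of 5 cases, with differences between 0.39 and 0.72 on the log2 scale. The coverage of these 3 lay mostly outside the annotated transcripts, with 2.34% to 25.5% of it in the latter. LOC_Os05g50290 of the same group, named after its values were seen, stood at 2.73, 3.60 and 3.28 FPKM in CK and at 0, 2.72 and 0 FPKM in GLY (-1.43 ± 0.54, adjusted p = 0.107), the largest difference of the silencing list. None of the 2 DNA methyltransferase, 2 Dicer and 2 histone H3 lysine 9 methylation genes tested passed. Entries with transposase-related descriptions outside the transposon models, such as the hAT dimerisation and FAR1 families, numbered 18. Of these, 4 were tested and 2 rose, and 19.3% of all entries tested were higher. The tested LOC_Os04g52060 is described as a transposable element protein, a label that lacks the words transposon protein, and did not pass (adjusted p = 0.190). Whether the 18 entries are host genes or parts of transposable elements was not tested. LOC_Os01g18920 rose from 0.914, 0.580 and 0.598 FPKM to 3.16, 4.04 and 3.59 FPKM (1.44 ± 0.13, adjusted p = 0.002), with 2.12% of its coverage in the annotated transcript. LOC_Os08g34830 rose from 0.236, 0.0849 and 0.212 FPKM to 1.10, 0.960 and 0.573 FPKM (0.67 ± 0.17, adjusted p = 0.037), and passed without GLY3 but not without any of the other libraries (adjusted p from 0.069 to 0.091) or under median-of-ratios scaling (0.063). With a CK mean of 0.177 FPKM, it too reached the filter through GLY alone.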

How the data were processed

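Ribosomal RNA was depleted from leaf RNA of 6 CA21 samples, 3 CK and 3 GLY, and paired-end libraries were sequenced. The authors removed low-quality reads, aligned the remainder to the Nipponbare genome by Bowtie 2 and TopHat2 (build named as IRGSP build 5.0, which is that of the coordinates as far as the sources state it), assembled transcripts with StringTie and calculated expression with Ballgown. They deposited FPKM per gene and per transcript, and the coverage per base of each transcript as deposited signal. How reads that fit several copies were treated is not given in the sources used here. Depth is coverage divided by FPKM.

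Under R 4.3.3, limma 3.58.1 (trended eBayes after lmFit) was fitted to log2(FPKM + 1), a pseudocount of 1, for the 19316 entries with a mean of at least 0.5 FPKM, with no covariate, two-sided and Benjamini-Hochberg adjusted over all of them. Larger changes were counted at a log2 fold change of 1 or more in size with P under 0.05, as in the study's methods. Single values per library were compared with exact two-sided permutation tests. Tables and figures were made in Python 3 with pandas. The fit was tested on simulated data.

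The members and the lists of silencing and transposase-derived genes were chosen with earlier results of these data known. Named genes are, per class, the 2 with the highest mean, up to 2 with the largest rise and 2 with the largest fall among those that passed without overlap, members listed at 0 in 1 group and at 0.5 FPKM or more in every library of the other, and the 2 silencing and 2 transposase-derived genes with the largest change among those that passed. Same-numbered CK and GLY libraries did not deviate together, with correlations of 0.003, 0.010 and 0.006, so no block was used. Alternatives were other pseudocounts, filters, scaling, a library-size covariate, no moderation, the replicate block and the omission of each library. No sequences of the members were used.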

Additional observations from a re-analysis of the deposited data

How the results depend on the processing

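FPKM tables hold no counts, so no counting error is given, and with 3 libraries a group an exact test cannot go below 0.1. Most members were too low to test. The number of models that passed the adjusted threshold, 46, was 46 with a pseudocount of 0.1, 37 with a minimum mean of 1 FPKM and 43 without moderation, shares of 35.7%, 37.4% and 33.3% against 24.0%, 27.2% and 20.9% of all entries. With no filter 51 passed (36 shared), which was 4.88% of 1045 models against 11.4% of all entries, since most models are near 0. Median-of-ratios scaling gave 27 (19 higher and 8 lower), 24 of them shared with the 46. With the replicate number as a block (replicate block) 22 passed, 18 of them higher, and all 22 were among the 46. The numbers pair no samples, and the block also ended the call of 8 named genes. The library-size covariate of Ballgown, which correlated with treatment at 0.988, left 0 models (0 higher and 0 lower) and 0 entries overall past the adjusted threshold in limma, with 7 models (5.43%) and 1188 entries (6.15%) at an unadjusted p under 0.05, and 7 models past the fold threshold, 1 of them lower. No other tool was run on that covariate. With 1 library left out, 29 to 41 models passed, 25 to 36 of them higher. The number past the fold threshold, 11, became 26 (23 higher) with a pseudocount of 0.1, 20.2% against 16.7% of all entries.

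The median log2 difference of all models was 0.45 with a pseudocount of 0.1, 0.0064 with no filter and 0.12 with median-of-ratios scaling. In the same order it was 0.47, 0.014 and 0.12 for unclassified retrotransposon, 0.60, 0.0034 and 0.24 for En/Spm, and 0.45, 0.068 and 0.11 for unclassified transposon models. For Ty1-copia models it was 0.12 with no filter and 0.13 with median-of-ratios scaling. Without a filter the many models near 0 enter the median, and the median of all entries is then 0.08. With each library left out the medians were 0.38 to 0.48 for En/Spm, 0.24 to 0.37 for unclassified retrotransposon, 0.27 to 0.33 for unclassified transposon and -1.12 to -0.18 for SINE models, where the values were -0.18 without CK3, -0.58 without GLY2 and -0.40 without GLY3. The difference of 177 detected models was 159 to 198 with a library left out, 42.0, 19.7 and 18.3 at minimums of 0.1, 0.5 and 1 FPKM, and 150 and 99.3 at minimums of 50 and 200 assigned bases, which were added after seeing the data. The Mutator sum turned to a ratio of 0.825 without its 2 highest models (also added). The cause was not tested.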
